A study of Mus musculus with 54 samples.

Results

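In germ cell-enriched testis of wild-type (WT) mice, 7652 regions were called as bound by BORIS, and 1397 of them shared no base with any of the 34625 CTCF peaks called in the same tissue. These 1397 BORIS-only peaks were defined by the 2 deposited peak lists alone, so the lack of a called CTCF peak is their definition and not a result. The remaining 6255 BORIS peaks overlap a CTCF peak by at least 1 bp and are called CTCF/BORIS peaks. The CTCF list begins at a peak height of 100 and the BORIS list at a height of 15, so CTCF signal below the lowest listed height may lie under a BORIS-only peak, and heights are compared here only within the BORIS list.

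CTCF is a zinc-finger DNA-binding protein found in nearly all cells, where it stops cohesin and anchors chromatin loops. BORIS, encoded by Ctcfl, is its paralogue: the zinc fingers that read DNA are closely alike, the ends of the proteins are not, and in healthy tissue BORIS is largely restricted to male germ cells. H3K4me3 marks active and poised promoters, and RNA polymerase II (Pol2) peaks mark promoters with polymerase loaded on them.

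All mice were C57BL/6 and 3 months old. Besides WT there were 3 other genotypes. CTCF HET mice (Ctcf+/-Boris+/+) keep 1 Ctcf allele. BORIS KO mice (Ctcf+/+Boris-/-) lack BORIS. CM mice (Ctcf+/-Boris-/-), which the labels name DKO, lack BORIS and keep 1 Ctcf allele. Each preparation pooled 4 mice, testes were dissociated with collagenase and trypsin, and RNA was sequenced from 3 libraries per genotype of whole testis, of sorted round spermatids and of sorted spermatocytes, except for WT spermatocytes with 2 libraries. Separate preparations are stated for whole testis, and where no separate cultures or animals are stated the p-values measure only the spread between libraries. The BORIS and CTCF peak lists are 1 list each, so counts of peaks carry no error between mice, and no BORIS ChIP from BORIS KO testis and no input track was analysed here.

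Library totals ranged from 10437683 to 42055813 counts in whole testis, from 47740650 to 98545423 in round spermatids and from 53337530 to 88946702 in spermatocytes. In whole testis Ctcf lay at 39.9, 40.7 and 47.0 CPM (counts scaled to the library total) in WT, at 22.3, 27.6 and 30.2 in CTCF HET and at 24.0, 26.9 and 27.4 in CM, with no overlap with WT. Ctcfl was scarce there, at 0.531 to 0.688 CPM in WT and at 0.122 to 0.201 in CM. In whole testis the log2 fold change of Ctcf against WT was -0.29 in BORIS KO, -0.66 in CTCF HET and -0.74 in CM. In the sorted cells Ctcf went against the CM label: 1 library labelled CM held 172 CPM in round spermatids (WT 29.4 to 48.7) and 1 held 85.9 in spermatocytes (WT 33.3 and 35.2), while the others lay at 33.0 to 44.6. Those samples are therefore written as libraries labelled CM. Of 36 spermatid markers 32 were higher in every WT round spermatid library than in every WT spermatocyte library, as was Acrv1, an acrosomal protein gene, at 225 to 259 against 3.27 to 3.38 CPM, and 2 were lower (Dnahc8 and Spag6). Of 39 meiotic prophase markers 20 were lower in round spermatids, among them Sycp3 (92.1 to 120 against 371 to 463 CPM) and Piwil1 (49.6 to 55.6 against 1514 to 1590), and 13 were higher, among them Rec8, Tex15 and Dmc1.

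The sequences at the summits of 5 of the highest promoter peaks show what kind of DNA carried BORIS without a CTCF call. Each is a plus-strand window of mm9 that lies outside annotated untranslated regions. Capitals mark the GC box GGGCGG (the site of SP/KLF factors), the E2F word TTTCCCGC or the full core of the CTCF site, in either orientation. The shorter word AGGGGGC from the CTCF site is not marked where it stands alone.
Leo1, chr9:75289498-75289617: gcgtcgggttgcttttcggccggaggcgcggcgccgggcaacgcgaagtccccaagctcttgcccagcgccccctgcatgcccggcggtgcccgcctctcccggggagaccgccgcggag
Arl10, chr13:54676730-54676849: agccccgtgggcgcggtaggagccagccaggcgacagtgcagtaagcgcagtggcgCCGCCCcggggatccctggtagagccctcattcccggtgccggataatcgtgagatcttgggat
Prrc2b, chr2:32006463-32006582: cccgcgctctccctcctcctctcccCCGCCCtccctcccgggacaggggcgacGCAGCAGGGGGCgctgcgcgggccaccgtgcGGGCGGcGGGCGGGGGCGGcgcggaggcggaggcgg
Amn1, chr6:149137262-149137381: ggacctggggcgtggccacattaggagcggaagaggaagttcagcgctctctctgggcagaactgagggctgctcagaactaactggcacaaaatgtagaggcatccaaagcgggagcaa
St6galnac4, chr2:32442465-32442584: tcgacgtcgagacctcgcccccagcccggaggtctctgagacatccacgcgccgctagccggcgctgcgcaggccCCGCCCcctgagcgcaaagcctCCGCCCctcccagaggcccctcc

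The Leo1 peak (chr9:75289316-75289794, in the gene) had a height of 658 with its summit 226 bp after the start. Leo1 encodes a subunit of the PAF1 elongation complex. The Arl10 peak (chr13:54676434-54676935) had a height of 522, that of Prrc2b (chr2:32006367-32006663) 474, that of Amn1 (chr6:149137186-149137462) 444 and that of St6galnac4 (chr2:32442380-32442661; a sialyltransferase gene) 395. Of these 5 windows 1, at Prrc2b, held the full CTCF core. The Leo1 window lacked the full core but held the shorter CTCF-site word AGGGGGC, which reads GCCCCCT on the printed strand. The highest promoter peak of all, at E130012A19Rik (chr11:97490567-97490969), had a height of 661 and its edge lay 164 bp from a CTCF peak.

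The highest BORIS-only peak anywhere was not at a promoter. It lay in Gal3st1 (a sulfotransferase gene named by the study on these samples as a target of CTCF and BORIS), at chr11:3892362-3892604. With a height of 715 it lay 2540 bp from the nearest start and under neither a Pol2 nor an H3K4me3 peak. It is shown with a peak in Zdhhc18 that sits 14 bp from a CTCF peak, because both windows do hold the CTCF core (capitals).
Gal3st1, chr11:3892417-3892536: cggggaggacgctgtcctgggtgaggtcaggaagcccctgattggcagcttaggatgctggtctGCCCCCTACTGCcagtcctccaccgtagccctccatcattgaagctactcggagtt
Zdhhc18, chr4:133201218-133201337: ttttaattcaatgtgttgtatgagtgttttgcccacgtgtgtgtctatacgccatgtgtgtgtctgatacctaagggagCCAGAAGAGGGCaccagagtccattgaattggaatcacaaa
The next highest peaks away from promoters, at chr14:65962739-65962965 with a height of 446 and at chr15:67008430-67008624 with a height of 326, held no core.

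BORIS-only peaks sat at promoters more often than CTCF/BORIS peaks did. A summit lay within 1 kb of an annotated start for 782 of 1397 (56.0%, 95% Wilson interval 53.4 to 58.6) against 2381 of 6255 (38.1%, 36.9 to 39.3), an odds ratio of 2.07 (Fisher's exact test, two-sided, adjusted p = 1.68e-33 over 9 tests of peak classes). Neighbouring peaks are not independent and each list is 1 sample, so these tests cover the counting of peaks only. Of the promoter members 566 (72.4%) had the summit within 250 bp of the start, against 66.8% of CTCF/BORIS promoter peaks. At 155 of them (19.8%) starts lay within reach on both strands, against 319 (13.4%). The plot of distances shows the members piled up around the start. Summits of promoter members had a median distance of -5 bp (negative is upstream), and 360 of 782 (46.0%) lay downstream. CTCF/BORIS promoter peaks had a median of -42 bp and 36.1% downstream.

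**Figure D1:**
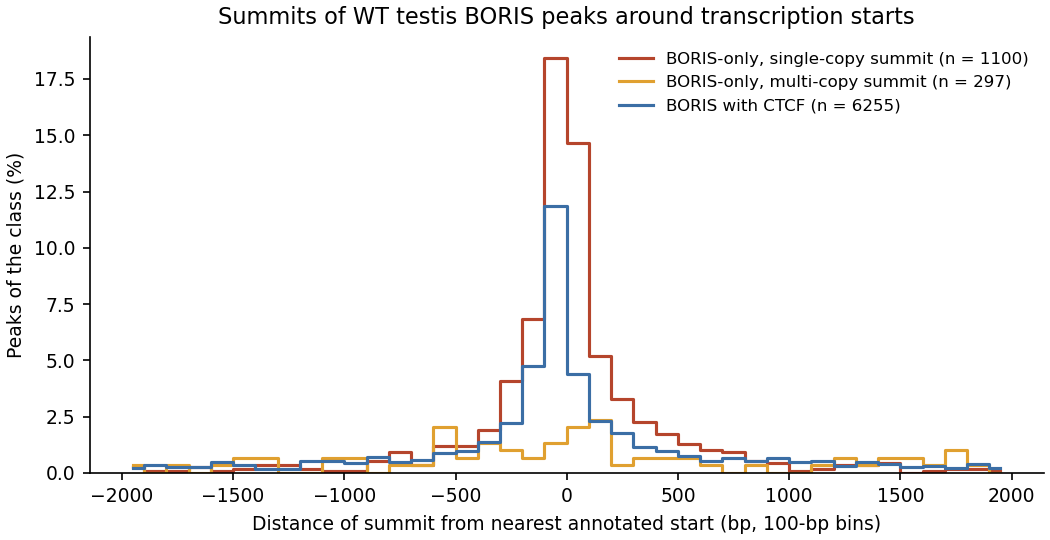
Percent of the peaks of each class in 100-bp bins of distance from the summit to the nearest annotated start (x axis, bp, negative is upstream), for single-copy BORIS-only peaks (n = 1100), multi-copy BORIS-only peaks (n = 297) and CTCF/BORIS peaks (n = 6255). Single-copy members pile up around the start, and multi-copy members do not.

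Part of the list lies in DNA that occurs more than once in the genome. Counting how often the 50-base stretches at each summit recur in mm9 left 1100 single-copy members (78.7%), 286 (20.5%) with 2 to 5 copies and 11 (0.787%) with more. Only exact matches on the assembled chromosomes were counted, so diverged repeats and repeats missing from the assembly were not. Single-copy here refers to exact matches in the assembly alone. Of the CTCF/BORIS peaks 6025 (96.3%) were single-copy and 207 (3.31%) had 2 to 5 copies. Single-copy members were at promoters in 735 cases (66.8%), in gene bodies in 176 (16.0%) and intergenic in 189 (17.2%). The 297 multi-copy members were at promoters in 47 cases (15.8%), in gene bodies in 143 (48.1%) and intergenic in 107 (36.0%). The alignment option given in the study's methods is one that in Bowtie drops reads with more than 5 matching sites, so reads of 2 to 5 copies could be kept, and the part of this option in the multi-copy peaks was not tested.

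Members were lower than CTCF/BORIS peaks, with heights of 16 to 715 (median 57) against 15 to 2052 (median 92). With all BORIS peaks cut into 4 equal groups by height, the members numbered 649, 376, 268 and 104 from the lowest to the highest group. Promoter members had a median height of 59, members away from promoters 54 and multi-copy members 47. The distance to the nearest CTCF peak ranged from 10 to 1839324 bp with a median of 13982 bp, and 169 members (12.1%) lay within 1 kb of one. In the CTCF list of CM testis (21525 peaks) 28 members (2.00%) had a peak, against 4306 CTCF/BORIS peaks (68.8%). The split by WT CTCF peaks favours this difference.

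The values at the edge of the rule are close to each other. Just inside it stood a peak at Lrrc24 (chr15:76545813-76545941, height 36, 10 bp from a CTCF peak of height 107), the Zdhhc18 peak (chr4:133201186-133201390, height 90, next to a CTCF peak of height 110) and a peak at Gm4673 (chr7:31742595-31742719, height 37, 18 bp away). Just outside it stood a peak at Mcph1 (chr8:18595052-18595301, height 38, overlap of 3 bp with a CTCF peak of height 174), the Carhsp1 peak (chr16:8671630-8671902, height 97, overlap 5 bp) and the Pdia3 peak (chr2:121239647-121239874, height 75, overlap 8 bp). A peak at the promoter of Ctcf itself (chr8:108160192-108160405, height 122) is a member, 25 bp from the nearest CTCF peak.

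The DNA of the members held more CpG and fewer CTCF sites than that of CTCF/BORIS peaks. The 300 bp around the summit had a median GC content of 59.3% against 56.0% in CTCF/BORIS peaks, and a median observed over expected CpG ratio of 0.682 against 0.456. Within the members the single-copy peaks had medians of 64.3% and 0.795 and the multi-copy peaks 47.7% and 0.130. Windows that met both CpG island limits numbered 711 (50.9%) against 2181 (34.9%, adjusted p = 5.86e-28). The 12-letter core of the CTCF site, with 1 mismatch allowed, was in 150 windows (10.7%) against 3959 (63.3%), an odds ratio of 0.0698 (adjusted p = 1.23e-302). Pairs of cores were in 3 members (0.215%) against 259 CTCF/BORIS peaks (4.14%, adjusted p = 3.76e-19). The rule sorted the peaks by a CTCF call and CTCF binds this site. Lower shares of the core and of pairs in the members therefore follow from the rule and are no separate support for the classes. On the X chromosome lay 28 members (2.00%) against 85 (1.36%, adjusted p = 0.0847), which did not pass.

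**Figure D2:**
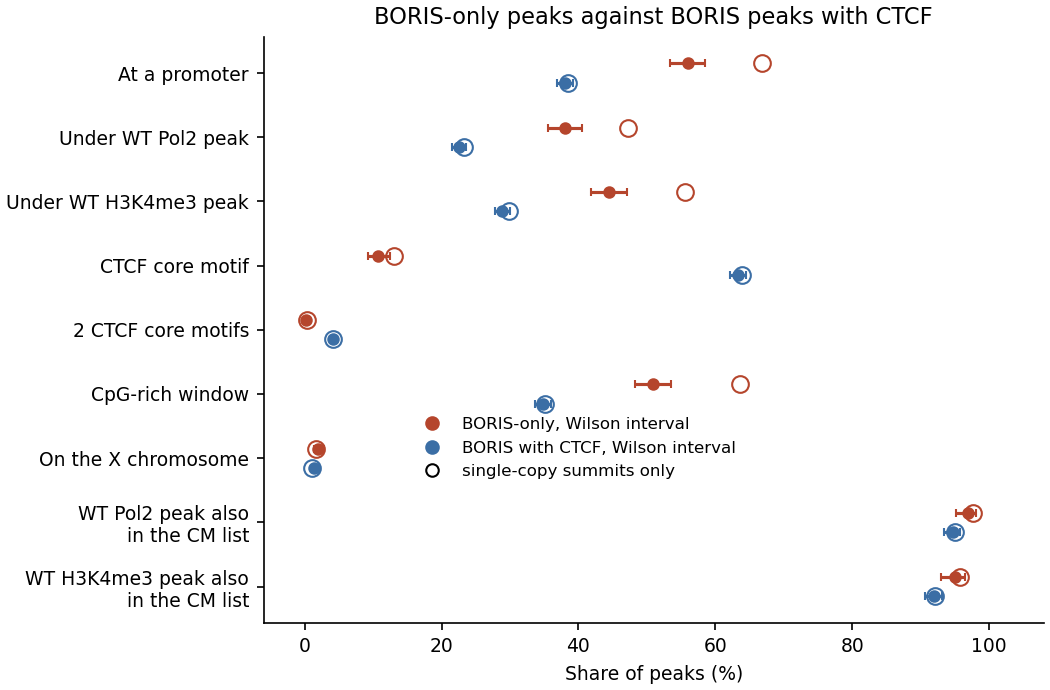
Percent of BORIS-only and CTCF/BORIS peaks (BORIS with CTCF in the key) with each of 9 features (x axis, percent), with 95% Wilson intervals; open circles are the same shares in single-copy peaks of each class. The CTCF core separates the classes most (10.7% against 63.3%), and the X chromosome separates them least. The classes were split by a CTCF call, so the core is not independent of the split.

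Exact short words were counted in the 300-bp windows of promoter peaks and of 22367 coding-gene starts. These sets are not matched in CpG. Windows were CpG-rich at 83.4% of promoter members, 71.3% of CTCF/BORIS promoter peaks and 38.0% of all starts. The part of this difference in the shares of words was not tested. These words were chosen after the peaks had been examined and the shares are a description. GGGCGG was in 69.8% of promoter members, 59.2% of CTCF/BORIS promoter peaks and 37.2% of all starts. TTTCCCGC, the word bound by E2F factors at cell cycle genes, was in 68 promoter members (8.70%), against 73 CTCF/BORIS promoter peaks (3.07%) and 0.988% of all starts. The word AGGGGGC from the CTCF site was rarer in members than in CTCF/BORIS promoter peaks but above all starts (21.4%, 39.8% and 10.1%). So was the 12-letter core with 1 mismatch allowed (6.39%, 41.0% and 4.24%). The CCAAT box (31.2%, 26.7% and 34.8%) was not more frequent in the members than at all starts. TATAAA was in 16 promoter members (2.05%), against 4.75% and 12.2%. The NRF1 word GCATGCGC (5.50%, 4.37% and 2.41%), the ETS word CCGGAAGT (5.63%, 5.38% and 3.62%), the cyclic AMP response element (1.79%, 1.64% and 1.70%) and the YY1 word AAGATGGC (3.96%, 3.82% and 3.45%) lay closer together. Both strands were searched, GGGCGG can overlap itself, and a word in a window says nothing of binding.

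**Figure D3:**
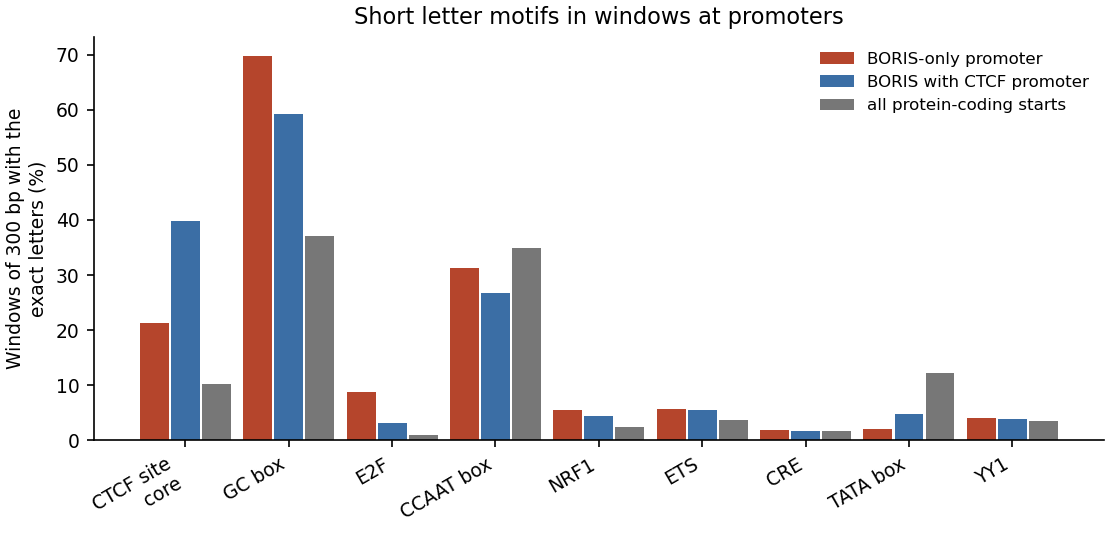
Percent of 300-bp windows with each exact word (y axis, percent; bars start at 0) for promoter members, CTCF/BORIS promoter peaks and all coding starts. GC box and E2F words are most frequent in the members, and the CTCF words in the CTCF/BORIS peaks.

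Members overlapped Pol2 and H3K4me3 more often than CTCF/BORIS peaks. A WT Pol2 peak covered 531 members (38.0%) against 1412 (22.6%), an odds ratio of 2.10 (adjusted p = 1.48e-30). A WT H3K4me3 peak covered 621 (44.5%) against 1807 (28.9%), an odds ratio of 1.97 (adjusted p = 4.27e-28). Both together covered 475 members (34.0%), and 720 (51.5%) had neither. Among promoter peaks the shares were 482 (61.6%) against 48.9% for Pol2 and 580 (74.2%) against 63.0% for H3K4me3. Away from promoters Pol2 covered 49 of 615 members (7.97%) against 6.38%, and H3K4me3 41 (6.67%) against 7.90%.

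Most of these promoter states were also listed in CM testis, where neither BORIS nor the full dose of Ctcf is present. Of the 531 members under WT Pol2, 515 (97%) were under CM Pol2, against 1338 of 1412 (94.8%, adjusted p = 0.0442). Of the 621 under WT H3K4me3, 590 (95.0%) were under CM H3K4me3, against 1663 of 1807 (92.0%, adjusted p = 0.0191). Among promoter peaks alone neither difference passed, and that for H3K4me3 was -0.0505 percentage points. Pol2 was listed at 16 members in WT only, at 106 in CM only and at 760 in neither, and H3K4me3 at 31, 110 and 666. The lists differ in size (Pol2 25192 peaks in WT and 28407 in CM, H3K4me3 34347 and 20432), and H3K4me3 is 1 library per genotype.

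Some members stood in dense runs. With gaps under 50 kb and at least 4 members, limits set after the peaks were seen, there were 9 runs with 121 members, 92 of them multi-copy, and 14 CTCF/BORIS peaks inside. The run with the most members held 36 on chr9:3000187-3038294, with heights of 19 to 164 (median 67), a median GC content of 35.0%, 28 multi-copy members, 8 under H3K4me3 and 0 under Pol2. A pair of runs on chromosome 8 held 34 (chr8:19861903-20037922) and 14 members (chr8:19684506-19801097), and 1 on chr5:14949237-15062628 held 12. The run on chr11:102046308-102180518 differs in its GC content: its 4 members, all single-copy, have a median of 73.0% and lie near Asb16, Hdac5 and Ubtf. The 6 members of a run on chrY:2863217-2891992 are single-copy too, with a median GC content of 43.5%. Whether input DNA rises in these runs was not tested. The highest peak of the chromosome 9 run counts as single-copy by exact matches, and its window has none of the marked words.
Chromosome 9 run, chr9:3019278-3019397: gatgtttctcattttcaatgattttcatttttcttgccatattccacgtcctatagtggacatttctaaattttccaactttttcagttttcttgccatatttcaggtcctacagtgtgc
By chromosome, members made up 25.8% of the BORIS peaks of chromosome 8 (15.8% of the single-copy ones), 23.5% on chromosome 9 (18.1%), 12.2% on chromosome 19 and 8 of 8 on chromosome Y.

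Promoter members lay at 895 annotated genes, 806 of them coding, and 799 of these genes are in the testis table of 23284 genes (3.43%). Genes at CTCF/BORIS promoters, counted here without the member genes, made up 9.31% of that table. Each share below is to be read against its own baseline. Cell cycle and chromatin lists held larger shares of member genes. Members had 12 of 40 DNA replication genes (30.0%), 13 of 48 mitotic genes (27.1%) and 14 of 56 chromatin regulators (25%), where CTCF/BORIS promoters had 20.0%, 12.5% and 12.5%. DNA repair followed with 7 of 50 (14.0% against 6.0%), meiotic prophase with 7 of 39 (17.9% against 17.9%), ubiquitin ligases and related genes with 6 of 39 (15.4% against 15.4%) and splicing with 4 of 31 (12.9% against 16.1%). Of 36 spermatid genes 2 were members (5.56% against 16.7%), and the spermatogonia, Sertoli, Leydig and peritubular or endothelial lists had 0. Of 15 cohesin and CTCF genes 3 were members (20% against 40%) and of 17 macrophage genes 1 was. Of 10 targets named by the study on these samples 1, Ctcf, was a member (10% against 70%). These counts take only summits within 1 kb of a start, so the peak in Gal3st1 is not among them.

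The E2F word was found in several of the lists. It was in 4 of the 12 replication members (Gins3, Mcm3, Pcna and Timeless; 33.3%), in 3 of 7 DNA repair members (Chek1, Fancd2 and Msh6; 42.9%), in 2 of 4 splicing members (50%), in 2 of 7 meiotic members (28.6%), in 2 of 13 mitotic members (15.4%) and in 1 of 14 chromatin members (7.14%), against 74 of 799 member genes (9.26%). Of the 4 highest replication members, shown here after their values were seen, Mcm3 (part of the MCM helicase), Gins3 (part of the GINS complex) and Timeless hold it and Tipin, the partner of Timeless at the fork, does not.
Mcm3, chr1:20810360-20810420: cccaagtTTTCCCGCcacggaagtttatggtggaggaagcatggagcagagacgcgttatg
Gins3, chr8:98157351-98157458: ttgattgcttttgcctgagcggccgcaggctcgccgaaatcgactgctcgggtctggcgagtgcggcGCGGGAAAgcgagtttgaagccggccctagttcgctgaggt
Timeless, chr10:127669259-127669378: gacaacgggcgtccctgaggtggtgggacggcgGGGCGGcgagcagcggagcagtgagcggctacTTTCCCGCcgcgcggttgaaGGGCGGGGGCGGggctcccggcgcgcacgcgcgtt
Tipin, chr9:64129340-64129413: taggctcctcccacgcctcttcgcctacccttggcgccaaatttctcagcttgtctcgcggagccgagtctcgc
Their summits lay 1 bp before (Mcm3, height 242), 49 bp before (Gins3, 141), 128 bp after (Timeless, 132) and 15 bp before the start (Tipin, 132).

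In the other lists the distance from summit to start varied. The summit lay 566 bp after the start at Bard1, 647 bp after it at Rnf19a, 613 bp after it at Catsper2 and 425 bp before it at Usp7 (-425), and within 150 bp at most of the others. Among mitotic genes Birc5 (survivin) had a height of 261 at 19 bp after the start, Ttk (a spindle checkpoint kinase) 181, Kif2c (a microtubule depolymerase) 162 and Bub1 117. Among chromatin regulators these were Smarca4 (the BRG1 ATPase, 138), Ehmt1 (an H3K9 methyltransferase, 129), Smarcd3 (103) and Sirt1 (102). Among meiotic genes they were Rec8 (the meiotic kleisin of cohesin, 281), Msh5 (a crossover factor, 183), Smc1b (meiotic cohesin, 61) and Mei1 (45). DNA repair was led by Msh6 (97), Chek1 (55), Fancd2 (42) and Bard1 (41), splicing by Sf3a1 (370) and Srsf10 (167), and ubiquitin genes by Itch (98), Cul1 (77), Usp7 (68) and Rnf19a (54). Only 2 spermatid genes were members, Catsper2 (a sperm calcium channel subunit, 97) and Rfx2 (47).

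Among genes with a mean WT count of 10 or more, member genes were expressed above the typical gene in WT. Their median was 5.73 RPKM (reads per kb of transcript scaled to depth) in whole testis against 3.79 over all such genes. It was 3.80 against 2.18 in round spermatids and 5.96 against 2.93 in spermatocytes. Genes at CTCF/BORIS promoters lay between these, at 4.70, 2.49 and 3.84 RPKM in the same order. Changes against WT are log2 fold changes from edgeR's quasi-likelihood test with Benjamini-Hochberg adjustment over all genes tested. A gene is called at an adjusted p under 0.05 and a fold change over 2, and the counts of members are read against the share of all genes called.

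In BORIS KO whole testis 0 of 761 tested member genes were called, where 0.0551% of all genes were. At an unadjusted p under 0.05 there were 123 (16.2%, against 16.6% of all genes), and DESeq2 called 4 (0.526%, all genes 1.38%). The replicate numbers pair these preparations, and with the number as a block 4 members were called (0.526%) against 1.67% of all genes. Nap1l1 (a histone chaperone), at 32.4, 32.8 and 42.6 CPM in BORIS KO and 64.4, 76.7 and 117 in WT, had a log2 fold change of -1.25 (adjusted p = 0.123; 0.00173 with the block). Mll1 (an H3K4 methyltransferase), at 20.2, 24.9 and 36.7 against 8.43, 12.5 and 12.6, had one of 1.29 (adjusted p = 0.182; 0.0425 with the block). The groups do not overlap for either gene. In CTCF HET testis 0 of 753 members were called (0.00621% of all genes) and 21 (2.79%) had an unadjusted p under 0.05, as had 2.63% of all genes.

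CM whole testis was the only whole-testis comparison in which member genes were called by this fit. Of 768 tested 111 were called (14.5%) against 21.2% of all genes, and with the replicate block 131 (17.1%) against 27.0%. Higher were 86 (11.2%, all genes 15.3%) and lower 25 (3.26%, all genes 5.9%), and genes at CTCF/BORIS promoters were called in 380 of 2026 cases (18.8%). The members' share lies below the background in both directions, with a median log2 fold change of -0.02 against 0.00. The count rests on single libraries: it was 0 without CM replicate 3, WT replicate 2 or WT replicate 3, 57 without WT replicate 1, and 158 without CM replicate 2. The share of all genes is not set beside these counts, so they show only how far the calls moved.

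Among the called members with the smallest adjusted p, the genes that rose included chromatin regulators. Mll1 was at 30.7, 49.0 and 90.3 CPM in CM against 8.43, 12.5 and 12.6 in WT, a log2 fold change of 2.30 ± 0.38 (SE, n = 3 libraries a group, edgeR adjusted p = 0.0154). Smarcd3, a SWI/SNF subunit, was at 8.44, 14.6 and 17.2 against 2.27, 2.67 and 3.36 (2.24 ± 0.34, edgeR adjusted p = 0.0151). Pank1, a pantothenate kinase, was at 66.3, 131 and 148 against 21.9, 24.4 and 32.4 (2.09 ± 0.34, edgeR adjusted p = 0.0151). Every CM library of these genes lay above every WT library. Fndc3b rose by 1.93 ± 0.32 and Snx24 by 2.83 ± 0.49, the latter from only 0.344 to 0.442 CPM in WT. Of 14 chromatin members 4 rose, Ehmt1, Mll1 and Smarcd3 among them, and none fell. Over the whole chromatin list 9 of 56 tested genes rose and 1 fell, and 15.3% of all genes rose. Of the highest promoter peaks, Prrc2b (1.70 ± 0.31), St6galnac4 (2.04 ± 0.49) and Arl10 (1.79 ± 0.55) rose, whereas Leo1, at 36.2, 43.0 and 57.5 CPM against 47.9, 48.0 and 48.6, did not pass (-0.11 ± 0.25), and neither did Amn1, at 15.1, 47.5 and 51.4 CPM against 36.4, 53.7 and 74.7 (-0.57 ± 0.48).

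The members that fell included kinesins and ubiquitin ligases. Kif2c was at 192, 219 and 304 CPM in CM against 516, 624 and 850.4 in WT (-1.49 ± 0.29, edgeR adjusted p = 0.0161). Luzp1 (-1.39 ± 0.27) and Kif17 (-1.22 ± 0.25; a kinesin of spermatids) fell, at 275, 313 and 344 CPM against 616, 680.4 and 1105 for Luzp1. Of the 6 ubiquitin members 3 fell, the ligase genes Wwp2 (-1.24 ± 0.25) and Rnf19a (-1.18 ± 0.27) among them. Over the whole ubiquitin list 4 of 39 tested genes fell and 1 rose, and 5.9% of all genes fell. Rfx2, a spermatid transcription factor, was at 143, 163 and 163 CPM against 264, 272 and 384 (-1.02 ± 0.25). In none of the genes given with single libraries do CM and WT overlap. Gal3st1, which holds the highest member away from promoters, was at 0.245, 0.311 and 0.702 CPM against 1.23, 1.29 and 2.30 (-1.86 ± 0.47, edgeR adjusted p = 0.0246).

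**Figure D4:**
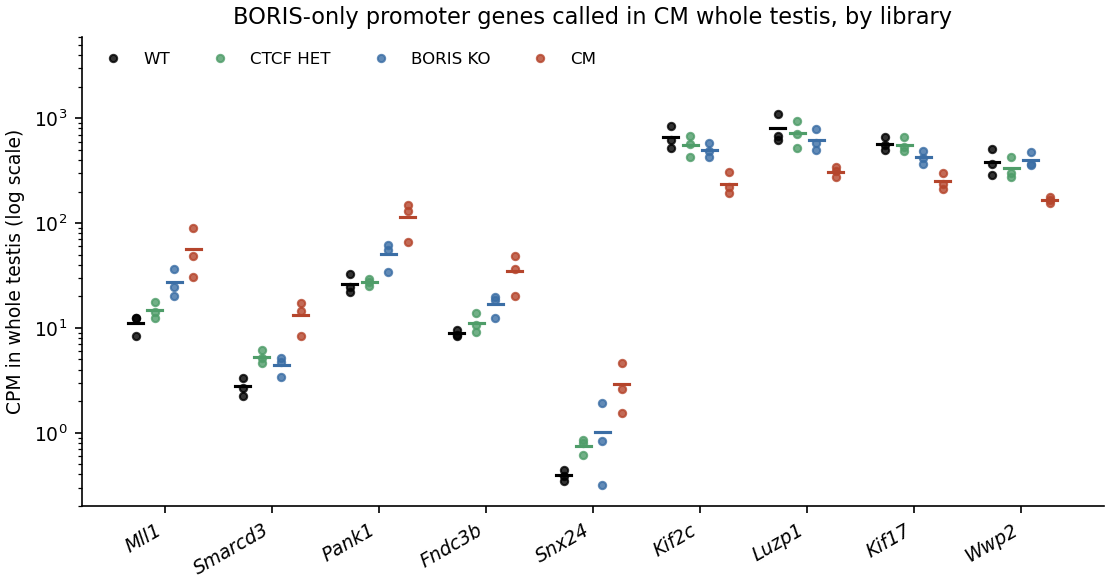
CPM per library (y axis, log scale) of 9 member genes in whole testis by genotype, from WT on the left of each gene to CM on the right, with CTCF HET and BORIS KO between them (3 libraries each; bars are means). For Mll1, Smarcd3, Pank1, Fndc3b and Snx24 the CM points lie above WT, and for Kif2c, Luzp1, Kif17 and Wwp2 below.

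Markers of other cells moved in the same libraries. Higher in CM were 7 of 17 Sertoli genes (summed level 834 to 1657 CPM against 369 to 564 in WT), 7 of 10 Leydig genes (2055 to 4105 against 463 to 803), 13 of 17 macrophage genes (748 to 1123 against 532 to 856) and 9 of 18 peritubular or endothelial genes (513 to 1202 against 167 to 331, with 1 lower). Lower were 16 of 36 spermatid genes (16786 to 26580 against 41982 to 50152). Their part in the members' changes was not tested, and in bulk tissue fewer cells of a type and less RNA per cell cannot be told apart. H2-Ab1, an antigen-presenting gene of macrophages that is itself a member, rose by 1.88 ± 0.43.

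In BORIS KO round spermatids 197 of 754 member genes were called (26.1%) against 26.9% of all genes, 105 higher (all genes 13.9%) and 92 lower (all genes 13.0%). With no fold limit 478 members (63.4%) passed against 55.8%. Smc1b fell most steeply among the named members, to 428, 439.9 and 508 CPM from 1907, 1910.4 and 1930.2 (-2.03 ± 0.08, edgeR adjusted p = 2.8e-06), while the libraries labelled CM held 1622, 1702 and 2184. Catsper2 fell to 557, 604 and 619 CPM from 1362, 1409.6 and 1478 (-1.22 ± 0.08). Fancd2 (of the Fanconi anaemia repair pathway) fell to 38.3, 39.2 and 40.2 from 96.7, 101 and 109.7 (-1.35 ± 0.10). In none of these 3 genes do BORIS KO and WT overlap.

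Members of some lists split in both directions there. Of the meiotic members H2afx, Mei1 and Msh5 rose and Smc1b fell, with Msh5 at 7.66, 9.18 and 9.21 CPM against 2.84, 3.68 and 3.97 (1.35 ± 0.18). Of the replication members Cdt1 rose and Tipin fell, from 75.1, 88.8 and 99.2 CPM to 35.3, 35.7 and 39.1 (-1.22 ± 0.12). Of the repair members Ung rose, and Fancd2 and Chek1 (-1.08 ± 0.17) fell. Ezh2 fell among chromatin members, Ccne2 among mitotic members, and Cul1 (-1.07 ± 0.13) among ubiquitin members. Over the whole lists, 4 of 39 tested meiotic genes rose and 16 fell. In the replication list 5 of 40 rose and 3 fell, and in the repair list 9 of 50 rose and 7 fell. In the chromatin list 0 of 55 rose and 6 fell, in the mitotic list 3 of 46 rose and 4 fell, and in the ubiquitin list 2 of 38 rose and 9 fell.

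In BORIS KO spermatocytes 47 of 728 members were called (6.46%) against 8.43% of all genes, 27 higher (all genes 5.22%) and 20 lower (all genes 3.21%). Smc1b fell here too, to 335, 357 and 405 CPM from 736 and 900.5 (-1.17 ± 0.10). Catsper2 (-1.02 ± 0.10) and Mll1 (-1.12 ± 0.13) fell, Mll1 from 6.14 and 6.94 CPM to 2.72, 2.94 and 3.41. Rec8 rose from 0.979 and 1.08 CPM to 1.60, 2.31 and 2.94 (1.15 ± 0.24), and WT round spermatids held 96.4 to 118 CPM of it. H2afx rose as well. The same WT libraries serve both genotype comparisons in each cell type, so no overlap between them is given.

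The libraries labelled CM gave few calls. In round spermatids 0 of 749 members were called (0.00654% of all genes). At an unadjusted p under 0.05 there were 190 (25.4%, all genes 20.5%), and DESeq2 called 94 (12.6%, all genes 9.07%). Without CM replicate 1 the edgeR count was 50, with no share of all genes set beside it. CM replicate 2 of round spermatids stood apart for some members, with Mll1 at 115 CPM against 12.7 and 21.2 in the others. In spermatocytes 5 of 735 were called (0.434% of all genes), 4 higher (0.339%) and 1 lower (0.0949%). DESeq2 called 53 there (7.21%, all genes 7.97%), and without CM replicate 1 edgeR called 94, again with no such share.

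**Figure D5:**
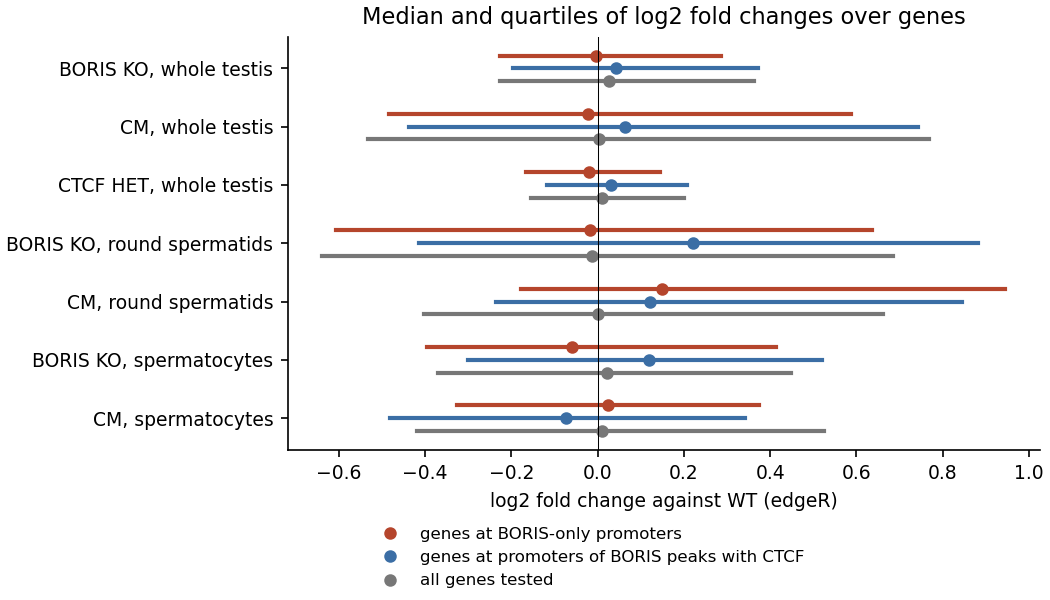
Median and quartiles of the log2 fold change against WT (x axis) in 7 comparisons for genes at BORIS-only promoters, genes at CTCF/BORIS promoters and all genes tested. The member medians lie near those of all genes in whole testis (BORIS KO 0.00 against 0.03, CM -0.02 against 0.00), and at 0.15 against 0.00 in round spermatids labelled CM.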

How the data were processed

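ChIP-seq of BORIS, CTCF, Pol2 and H3K4me3 and RNA-seq of whole testis, round spermatids and spermatocytes were analysed. The authors used Bowtie2 for the ChIP reads (mm9) and MACS for the peaks, and PeakSplitter divided the CTCF and BORIS peaks; how replicates were combined is not given in the sources used here. They deposited peak lists with a score or signal per peak (the height), and counts per gene made with TopHat2 or STAR; the submitters' notes also name Cufflinks 2.0.0 and DESeq2. Heights were used only to order peaks of 1 list. The lists are per genotype, not per preparation.

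BORIS peaks were classed by 1 bp overlap, a promoter was 1 kb around an annotated start, windows were 300 bp, a CpG-rich window had GC of 50% or more and a CpG ratio of 0.6 or more, and copies were counted from 50-base stretches in 150 bases at the summit. Classes were compared by Fisher's exact test. Counts were fitted with edgeR 4.0.16 (TMM, filterByExpr, robust quasi-likelihood, R 4.3.3; limma 3.58.1), each genotype against WT; DESeq2 1.42.0 and the replicate block were alternatives. Scripts were tested on simulated data, where 155 of 200 genes with a log2 fold change of 2 were found in CM testis, 90 in CM round spermatids and 119 in CM spermatocytes. In whole testis 18 of 18 same-numbered pairs deviated together (correlation 0.12 to 0.63), so the numbers pair those libraries; 4 of 18 did in round spermatids and 1 of 15 in spermatocytes.

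Members, lists, words and the rule for named genes were chosen with earlier results of these data known. Named genes are Ctcf and Ctcfl, the genes at the 8 highest promoter members, up to 5 called members in each direction in BORIS KO and CM testis (3 uncalled where fewer were called), up to 4 members of each gene list by height, the 3 peaks on each side of the rule's edge and the 3 highest members away from promoters; other named genes were chosen after their values were seen, and some genes that meet the rule are not reported here. Input samples were not analysed here. Sequences were read from mm9. Wilson intervals (95%) cover counting error only.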

Additional observations from a re-analysis of the deposited data

Results flagged for a closer look

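In 5 cases the change against WT differed between spermatocytes and round spermatids by the interaction term of a fit over all genes (edgeR, adjusted). The value is the log2 fold change in spermatocytes minus that in round spermatids. In BORIS KO it was 1.33 ± 0.19 (SE) for Tipin (0.04 in spermatocytes and -1.22 in round spermatids, edgeR adjusted p = 0.00353) and 1.46 ± 0.26 for Rec8 (1.15 and -0.23, edgeR adjusted p = 0.00633). In the libraries labelled CM it was 3.08 ± 0.47 for Rec8 (2.38 and -0.64, edgeR adjusted p = 0.0170), 2.67 ± 0.59 for Fam135b (1.62 and -0.98, edgeR adjusted p = 0.0305) and 2.43 ± 0.55 for Luzp1 (1.67 and -0.70, edgeR adjusted p = 0.0322). The Ctcf level of those libraries goes against their label, as given above. Over all members an interaction passed for 122 of 764 in BORIS KO (16.0%, all genes 13.4%) and for 16 of 767 in the libraries labelled CM (2.09%, all genes 3.51%).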

How the results depend on the processing

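Differences between the peak classes are given as percentage points, BORIS-only minus CTCF/BORIS. Promoters, both CTCF core counts, Pol2, H3K4me3 and CpG-rich windows kept their direction in the alternatives tested, and did not pass in 4 cases: Pol2 in the highest of 4 height groups (10.7 against 15.4), H3K4me3 in that group (9.36 against 15.6) and in single-copy peaks away from promoters (2.32; with multi-copy peaks included, H3K4me3 away from promoters was lower in the members, 6.67% against 7.90%, with no test), and CpG-rich windows in the latter (3.53 against 16.0). The X chromosome difference (0.645) passed in the upper 50% of heights (1.47) and in single-copy peaks away from promoters (1.90), and turned negative in the lowest height group (-0.116), at promoters (-0.447) and in single-copy promoter peaks (-0.205). Pol2 kept in CM (2.23) did not pass without CTCF within 1 kb (1.95), in the upper 50% (1.61) or with Pol2 peaks widened by 1 kb (1.74). Nor did it pass in the 4 height groups from lowest to highest (2.12, 4.03, 3.30 and 3.24). It also did not pass at promoters (0.679), in single-copy promoter peaks (0.589) or in single-copy peaks away from them (4.41). H3K4me3 kept in CM (2.98) did not pass in the upper 50% (2.40), in the 3 higher height groups (1.81, 5.27 and 0.678), in single-copy promoter peaks (0.438) or in single-copy peaks away from them (6.65), and turned to -0.0505 at promoters. The cause was not tested. Subsets hold fewer peaks.

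Counts of called members moved more. The share of all genes called moved between settings too, so the counts below describe the calls and not the members. In the fit over all genotypes members were called at 14.7% in round spermatids labelled CM (all genes 12.3%). In spermatocytes that fit gave 2.57% in BORIS KO (all genes 1.97%) and 4.46% in libraries labelled CM (all genes 3.37%). The wider gene rule covers 1314 genes against 895. In BORIS KO testis (0) DESeq2 called 4, the replicate block 4 and genes with a peak within 2 kb or in the body 1; leaving out a library gave 0 to 0. In CM testis (111) an adjusted p under 0.001 left 0 and the wider gene rule gave 179; leaving out a library gave 0 to 158. In CTCF HET leaving out a library gave 0 to 0. In BORIS KO round spermatids (197) no fold limit gave 478 and leaving out a library 178 to 244; in BORIS KO spermatocytes (47) these were 495 and 34 to 58, a fit over all genotypes gave 19 and the wider gene rule 77. In round spermatids labelled CM (0) DESeq2 called 94, the fit over all genotypes 112, and leaving out a library 0 to 50. In spermatocytes labelled CM (5) they called 53 and 33, the replicate block 1, an adjusted p under 0.001 0, no fold limit 8, and leaving out a library 0 to 94. Where the replicate numbers do not pair the libraries, the block is given here only.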
